A study of Bos taurus with 12 samples.

Results

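A set of 40 genes of the cell division cycle was followed in bovine embryonic stem cells: 20 that act in DNA replication and S phase and 20 that act in mitosis. They were taken by symbol, and all 40 are among the 19285 entries of the deposited count table and among the 13920 genes that could be tested. The cells are of the line F7, whose genotype is labelled WT in all libraries, and messenger RNA was sequenced from 4 groups with 3 libraries apiece. Their names are MC (treatment labelled NC), 1/7MC, 1/7MC+Pyr and 1/7MC+Pyr+FGF. From the series title, the question was whether pyruvate (Pyr) and a recombinant human basic fibroblast growth factor (FGF) act on cells that grow on a sparse layer of feeder cells. The labels give neither the meaning of MC, nor doses, times or the feeder cells, and nothing says that replicates came from separate cultures. The p-values therefore measure only the spread between these libraries, which may be technical.

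Before a cell divides, origins of replication are licensed by loading the MCM helicase, cyclin E with its kinase starts S phase, and a replication fork of polymerases, clamp and clamp loader copies the DNA from deoxynucleotides that RRM1, RRM2 and TYMS help to supply. Mitosis is then driven by CDK1 with cyclins A and B and by the Polo-like and Aurora kinases, while kinetochore and checkpoint proteins hold chromosomes on the spindle until CDC20 lets the anaphase-promoting complex act. Pluripotent stem cells are known for a short G1 phase and for a large share of cells in S phase, so transcripts of both sets are abundant in them.

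Levels are given as CPM, which are counts scaled to a library size corrected with trimmed-mean (TMM) factors, in the order of replicates 1, 2 and 3. A fold change is log2 of the group named first against the other ± standard error, from edgeR's quasi-likelihood F test with 3 libraries per group unless stated, and adjusted p is Benjamini-Hochberg over all genes tested. A gene rose or fell where adjusted p was under 0.05. No share of all genes was counted at an unadjusted p under 0.05, so counts at that limit have no background here. Total counts ranged from 27373759 to 44440972 per library. Per kilobase of gene length, the level in MC replicate 1 ran from 4.53 CPM for TTK to 194 for MCM5, with a median of 49.9 over the 40 genes.

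MC replicates 2 and 3 stand apart from the other 10 libraries in how entries that share an identifier were counted, and in 4 of the 40 genes their mean lies over 0.4 (log2) from MC replicate 1, a limit set after the values were seen. Of 128 Ensembl identifiers shared by several entries, the 10 libraries each had 80 to 86 with counts that differ, and MC replicates 2 and 3 had 0. For 61 Entrez identifiers shared in the same way it was 53 in MC replicates 2 and 3 and 0 elsewhere. The kinase gene TTK was counted 231 times in MC replicate 1, but 2142 and 1726 times in the other MC libraries. CDK1, the central mitotic kinase, went the other way, with 6012 counts in replicate 1 and 2730 and 2212 in the others. In MCM4 and FEN1 the mean of MC replicates 2 and 3 lay 0.95 and -0.41 (log2) from MC replicate 1. For the other 36 genes that difference was between -0.09 and 0.30, with CCNE1 at the upper end. Whether it goes back to the way the entries were counted was not tested. Comparisons of the gene sets with MC are given with all 3 MC libraries and with MC replicate 1 alone. Not every single gene has its value in the second fit, and the marker counts use all 3 MC libraries. With MC replicate 1 alone, MC has no replicate and is assumed to vary like the other groups.

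Markers of other cells moved between the groups too. The 28 fibroblast and feeder markers had a summed level of 6369 to 6568 CPM for MC, 19696 to 27955 for 1/7MC, 23257 to 36900 for 1/7MC+Pyr and 16367 to 22178 for 1/7MC+Pyr+FGF, with none at 0. Of these 28, 27 rose and 1 fell in 1/7MC against MC. In 1/7MC+Pyr against 1/7MC, 5 rose and 9 fell, with a median fold change of -0.05. In 1/7MC+Pyr+FGF against 1/7MC, 1 rose and 10 fell. COL1A1 weighs heavily in the sums, with 4837, 6719 and 3995 CPM in 1/7MC and 11554.5, 5737 and 8012 in 1/7MC+Pyr. The 10 pluripotency markers in the table of 12 listed had a summed level of 4857 to 4951 CPM for MC and 2750 to 3071 for 1/7MC. It was 4512 to 4764 for 1/7MC+Pyr and 3696 to 4125 for 1/7MC+Pyr+FGF. Of the 10 markers, 8 fell and 0 rose in 1/7MC against MC. With pyruvate, 8 rose and 0 fell against 1/7MC. DNMT3B and POU5F1 weigh most in the sum, at 1717 and 1120 CPM for MC replicate 1. NANOG did not follow it: the 1/7MC libraries (43.3, 37.5 and 40.5 CPM) overlapped MC (34.1, 40.3 and 40.9). EPCAM reached at most 21.8 CPM for 1/7MC+Pyr, where every MC library had 73.0 or more. Endothelial markers summed to at most 54.8 CPM and blood markers to at most 9.20. In bulk RNA, fewer cells of a type and less RNA per cell cannot be told apart. The part of these markers in the results below was not tested.

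In 1/7MC against MC, 14 of the 20 replication genes and 12 of the 20 mitosis genes fell, and 1 replication gene (CCNE2) rose. Over all genes tested, 21.3% fell and 23.7% rose. The median fold change was -0.42 for the replication genes and -0.31 for the mitosis genes, against 0.005 for all genes tested. No mitosis gene rose by edgeR's test, nor at an unadjusted p under 0.05 or by DESeq2 (0 of 20 each). In 16 replication and 16 mitosis genes all 1/7MC libraries lay below all MC libraries, and in 1 of each set above. Separation of this kind was common: of all 13920 genes tested, 4013 lay below and 4060 above without overlap. The heat map by library shows the shift in all 3 1/7MC libraries.

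**Figure D1:**
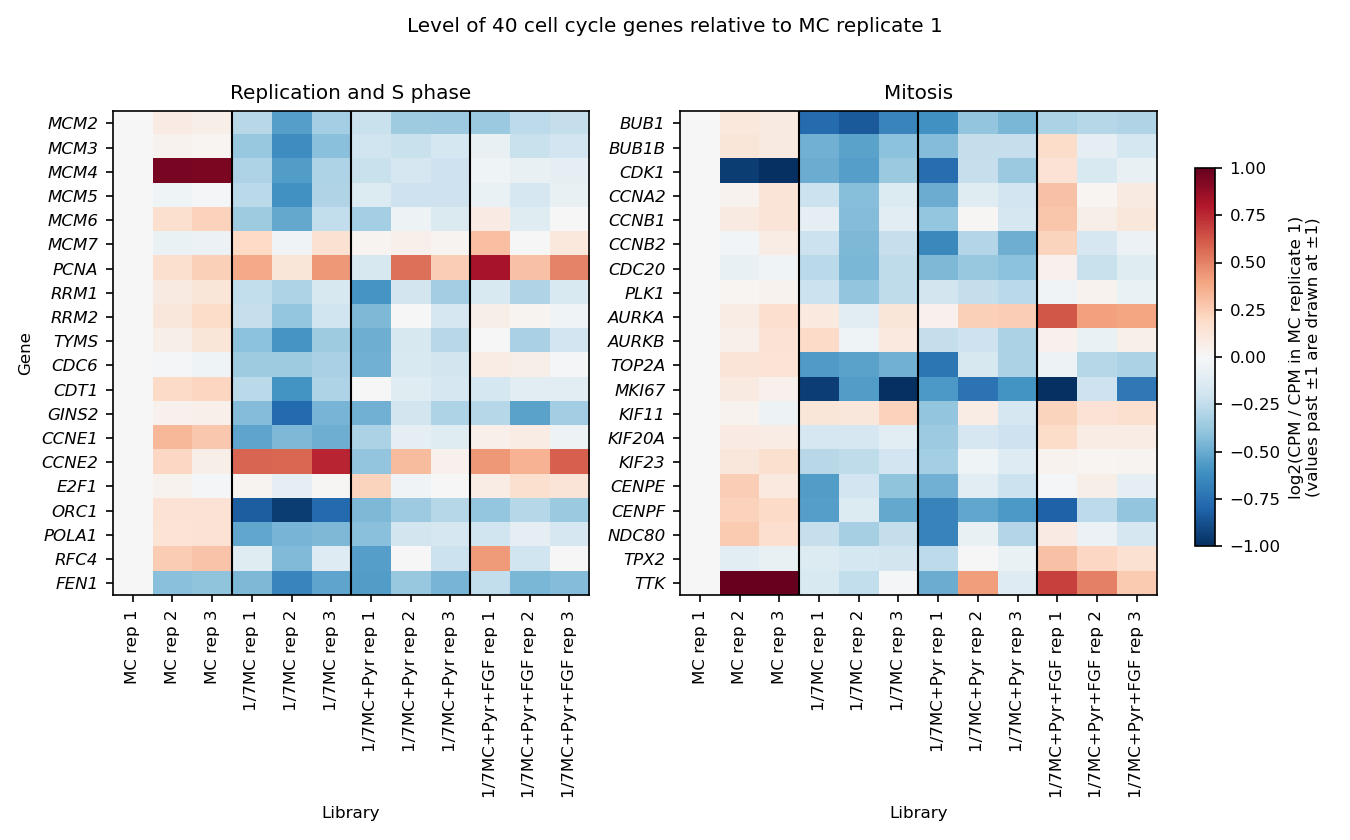
Level of each of the 40 genes in the 12 libraries, as log2 of CPM over the CPM of MC replicate 1 (colour, values beyond 1 in size drawn at 1), replication genes on the left and mitosis genes on the right, vertical lines between groups. Most rows are blue in the 3 1/7MC libraries, with medians from -0.22 to -0.49, and MCM4, CDK1 and TTK change sharply within the MC group.

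The MCM2 to MCM7 proteins form the ring-shaped replicative helicase, and 5 of the 6 genes fell. MCM3 had MC values of 484, 497 and 491 CPM, 1/7MC values of 372, 315 and 362, 1/7MC+Pyr values of 423, 416 and 428 and 1/7MC+Pyr+FGF values of 459, 414 and 425. Each of the 3 1/7MC libraries was below each MC library, and the pyruvate groups lay between them. The fall in MCM3 was -0.49 ± 0.08 (adjusted p = 0.000435), and it held against MC replicate 1 alone at -0.46 (adjusted p = 0.0251). MCM2 had MC values of 623, 659.8 and 649 CPM, 1/7MC values of 515, 425 and 493, 1/7MC+Pyr values of 533, 487 and 485 and 1/7MC+Pyr+FGF values of 482, 519 and 529.5. MCM5 had MC values of 465, 452 and 458 CPM, 1/7MC values of 385, 306 and 378, 1/7MC+Pyr values of 422, 402 and 403 and 1/7MC+Pyr+FGF values of 445, 414 and 441. MCM6 had MC values of 300.1, 336 and 351 CPM, 1/7MC values of 234, 210.3 and 253, 1/7MC+Pyr values of 237, 290.4 and 272 and 1/7MC+Pyr+FGF values of 318, 276 and 301. In these 3 genes the 1/7MC libraries were likewise below all MC libraries, with replicate 2 the lowest. Their changes were -0.43 ± 0.09 (adjusted p = 0.00183) for MCM2, -0.36 (adjusted p = 0.00637) for MCM5 and -0.50 (adjusted p = 0.00207) for MCM6. None of the 3 passed against MC replicate 1 alone, where they were -0.37 (adjusted p = 0.0806), -0.37 (adjusted p = 0.0827) and -0.36 (adjusted p = 0.101). MCM4 had MC values of 233, 451 and 447 CPM, 1/7MC values of 188, 158 and 188, 1/7MC+Pyr values of 199.96, 208 and 202 and 1/7MC+Pyr+FGF values of 226, 222 and 218. Its high values are those of MC replicates 2 and 3, so -1.08 ± 0.19 (adjusted p = 0.000649) with all MC libraries became -0.38 (adjusted p = 0.0528) with MC replicate 1. MCM7 had MC values of 439, 420.1 and 422 CPM, 1/7MC values of 505, 428 and 489, 1/7MC+Pyr values of 448, 455 and 447 and 1/7MC+Pyr+FGF values of 542, 439 and 471. It did not pass (0.15 (adjusted p = 0.214)), its 1/7MC libraries reaching from within the MC range to above it.

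All 4 licensing and origin genes fell. ORC1, the large subunit of the complex that marks origins, showed the largest change of the replication genes that also held against MC replicate 1. ORC1 had MC values of 126, 139 and 139 CPM, 1/7MC values of 71.1, 65.1 and 73.2, 1/7MC+Pyr values of 92.01, 97.7 and 103 and 1/7MC+Pyr+FGF values of 96.3, 103 and 97.01. The 3 1/7MC libraries were the lowest of the 12, and both pyruvate groups lay between them and MC without overlap. The fall was -0.95 ± 0.08 (adjusted p = 2.44e-06), and -0.84 (adjusted p = 0.000296) against MC replicate 1. GINS2, a subunit of the GINS complex that joins the active helicase, had MC values of 156, 161 and 162 CPM, 1/7MC values of 116, 91.2 and 113, 1/7MC+Pyr values of 112, 137 and 126 and 1/7MC+Pyr+FGF values of 128, 108 and 123. All 1/7MC libraries were below MC, 1/7MC replicate 2 lying furthest down. GINS2 fell by 0.58 on the log2 scale (adjusted p = 0.00104) and by 0.54 (adjusted p = 0.0244) against MC replicate 1. The helicase loaders CDC6 and CDT1 followed. CDC6 had MC values of 39.9, 39.5 and 38.7 CPM, 1/7MC values of 31.2, 31.2 and 31.8, 1/7MC+Pyr values of 28.6, 35.97 and 35.2 and 1/7MC+Pyr+FGF values of 42.02, 41.5 and 39.7. CDT1 had MC values of 116, 132 and 134 CPM, 1/7MC values of 95.9, 76.3 and 93.6, 1/7MC+Pyr values of 115, 106 and 103 and 1/7MC+Pyr+FGF values of 102, 107 and 108. Neither overlapped between 1/7MC and MC. CDC6 changed by -0.33 (adjusted p = 0.015) and CDT1 by -0.52 (adjusted p = 0.00112), but by -0.34 (adjusted p = 0.115) and -0.38 (adjusted p = 0.0777) against MC replicate 1 alone, where neither passed.

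All 3 nucleotide supply genes fell with all MC libraries, and none against MC replicate 1 alone. Thymidylate synthase, TYMS, had MC values of 212, 220.3 and 231 CPM, 1/7MC values of 159, 140.5 and 166, 1/7MC+Pyr values of 151, 189 and 175 and 1/7MC+Pyr+FGF values of 212, 169 and 186. RRM1, the large subunit of ribonucleotide reductase, had MC values of 314, 333 and 342 CPM, 1/7MC values of 265, 254 and 281, 1/7MC+Pyr values of 208, 276 and 247 and 1/7MC+Pyr+FGF values of 283, 255 and 282. RRM2, its small subunit, had MC values of 446, 482 and 506 CPM, 1/7MC values of 381, 341 and 389, 1/7MC+Pyr values of 327, 445 and 397 and 1/7MC+Pyr+FGF values of 465, 454 and 434. In all 3 genes the 1/7MC libraries lay below the MC libraries. The changes were -0.51 (adjusted p = 0.00237), -0.31 (adjusted p = 0.0283) and -0.37 (adjusted p = 0.0155) for TYMS, RRM1 and RRM2. Against MC replicate 1 they were -0.44 (adjusted p = 0.0591), -0.22 (adjusted p = 0.33) and -0.26 (adjusted p = 0.278).

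Of the 4 genes of synthesis at the fork, 1 fell. POLA1, the catalytic subunit of the priming polymerase, had MC values of 103, 113 and 114 CPM, 1/7MC values of 71.9, 74.9 and 75.4, 1/7MC+Pyr values of 77.3, 90.97 and 91.98 and 1/7MC+Pyr+FGF values of 89.97, 96.4 and 91.8. All 1/7MC libraries were lower than every other library. The change was -0.57 ± 0.09 (adjusted p = 0.000203), and -0.47 (adjusted p = 0.0213) against MC replicate 1. The flap endonuclease gene FEN1 had MC values of 178, 134 and 135 CPM, 1/7MC values of 131, 113 and 124, 1/7MC+Pyr values of 121, 137 and 129 and 1/7MC+Pyr+FGF values of 151, 129.97 and 132. With all MC libraries it did not pass (-0.28 (adjusted p = 0.0696)), while against MC replicate 1, the highest of the 12, it fell by 0.53 on the log2 scale (adjusted p = 0.0117). The clamp PCNA had MC values of 266, 296 and 314 CPM, 1/7MC values of 345, 289 and 359.8, 1/7MC+Pyr values of 238, 390.1 and 315 and 1/7MC+Pyr+FGF values of 470.4, 326 and 375, and did not pass in any of the comparisons. The clamp loader subunit RFC4 changed by -0.41 (adjusted p = 0.0754) and also passed in none.

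The 2 E-type cyclins, which share the kinase CDK2, went in opposite directions. CCNE1 had MC values of 39.5, 49.8 and 47.7 CPM, 1/7MC values of 27.43, 28.96 and 28.2, 1/7MC+Pyr values of 31.8, 37.1 and 36.4 and 1/7MC+Pyr+FGF values of 40.99, 41.5 and 38.1. CCNE2 had MC values of 11.6, 13.4 and 12.1 CPM, 1/7MC values of 17.4, 17.3 and 19.8, 1/7MC+Pyr values of 8.84, 14.5 and 11.97 and 1/7MC+Pyr+FGF values of 15.7, 14.8 and 17.6. The 3 lowest CCNE1 values of the 12 libraries were those of 1/7MC, and CCNE2 in 1/7MC lay above all MC libraries. CCNE1 fell by 0.69 ± 0.11 on the log2 scale (adjusted p = 0.000196) and by 0.48 (adjusted p = 0.0224) against MC replicate 1. CCNE2 rose by 0.55 ± 0.16 (adjusted p = 0.0129); against MC replicate 1 the value was 0.65 (adjusted p = 0.0531) and did not pass. E2F1, a transcription factor of S phase genes, had MC values of 67.6, 69.1 and 66.7 CPM, 1/7MC values of 69.1, 63.5 and 68.1, 1/7MC+Pyr values of 78.99, 65.98 and 67.6 and 1/7MC+Pyr+FGF values of 71.2, 75.6 and 73.97. It did not pass (-0.02 (adjusted p = 0.87)), and the groups overlapped.

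**Figure D2:**
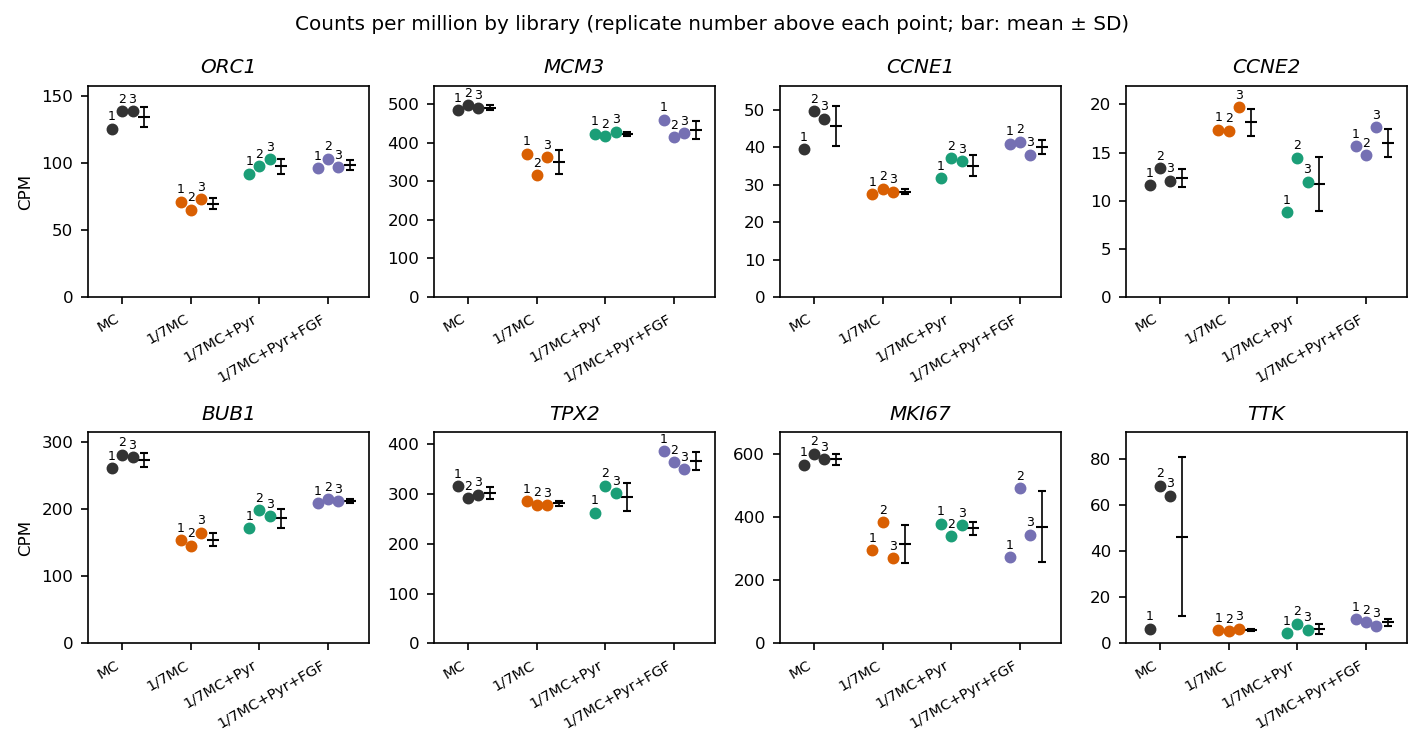
CPM of 8 genes in each of the 12 libraries (points, replicate number above), with the group mean ± SD as a bar, on axes from 0. ORC1, BUB1, MCM3 and CCNE1 are lowest in 1/7MC, CCNE2 has its highest mean there, TPX2 is highest in 1/7MC+Pyr+FGF, MKI67 spreads from 272 to 491 within 1/7MC+Pyr+FGF, and TTK reads 6.47 in MC replicate 1 against 68.4 and 64.1 in the other MC libraries.

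Among the mitosis genes, all 6 of the kinetochore and checkpoint group fell. The spindle checkpoint kinase BUB1 had MC values of 261, 281 and 278 CPM, 1/7MC values of 154, 146 and 165, 1/7MC+Pyr values of 172, 199 and 189.8 and 1/7MC+Pyr+FGF values of 209, 215 and 212. The order 1/7MC, 1/7MC+Pyr, 1/7MC+Pyr+FGF, MC held with no overlap between any neighbours. BUB1 fell by 0.82 ± 0.08 on the log2 scale (adjusted p = 7.25e-06), and by 0.74 (adjusted p = 0.000826) against MC replicate 1. BUB1B, which encodes the checkpoint protein BubR1, had MC values of 179, 195 and 190.3 CPM, 1/7MC values of 129, 124 and 135, 1/7MC+Pyr values of 132, 152 and 153 and 1/7MC+Pyr+FGF values of 203, 167 and 159. Its 1/7MC libraries were below all MC libraries. It fell by 0.54 (adjusted p = 0.000962) and by 0.46 (adjusted p = 0.0393) on the log2 scale with the 3 and the 1 MC libraries. NDC80, the microtubule-binding part of the kinetochore, had MC values of 66.9, 80.2 and 75.04 CPM, 1/7MC values of 57.1, 53.1 and 56.7, 1/7MC+Pyr values of 42.05, 63.6 and 54.5 and 1/7MC+Pyr+FGF values of 70.8, 64.2 and 59.5. The kinetochore motor CENPE had MC values of 84.5, 100.1 and 90.2 CPM, 1/7MC values of 57.3, 73.99 and 63.9, 1/7MC+Pyr values of 60.4, 77.9 and 72.6 and 1/7MC+Pyr+FGF values of 83.8, 87.9 and 79.5. CENPF, a large protein of the outer kinetochore, had MC values of 304, 356 and 346 CPM, 1/7MC values of 207, 277 and 213, 1/7MC+Pyr values of 191, 212 and 204 and 1/7MC+Pyr+FGF values of 173, 254 and 231. For all 3 the 1/7MC libraries were below MC, in CENPE and CENPF with replicate 2 the highest of the group. They changed by -0.41 (adjusted p = 0.0252), -0.49 (adjusted p = 0.00495) and -0.53 (adjusted p = 0.0101), and by -0.26 (adjusted p = 0.352), -0.36 (adjusted p = 0.141) and -0.37 (adjusted p = 0.217) against MC replicate 1, where none passed. The checkpoint kinase TTK had MC values of 6.47, 68.4 and 64.1 CPM, 1/7MC values of 5.84, 5.46 and 6.41, 1/7MC+Pyr values of 4.59, 8.65 and 5.93 and 1/7MC+Pyr+FGF values of 10.4, 9.17 and 7.74. Its call (-2.97 ± 0.61 (adjusted p = 0.00177)) rests on MC replicates 2 and 3, since against MC replicate 1 the change was -0.12 (adjusted p = 0.802).

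Both chromosome genes fell. Topoisomerase II alpha, TOP2A, had MC values of 974, 1064 and 1071 CPM, 1/7MC values of 659, 674 and 697, 1/7MC+Pyr values of 591, 871 and 782 and 1/7MC+Pyr+FGF values of 942, 798 and 783. Its 1/7MC libraries did not overlap with MC, giving -0.61 ± 0.13 (adjusted p = 0.00196), or -0.51 (adjusted p = 0.0582) against MC replicate 1, which did not pass. MKI67, which encodes the proliferation marker Ki-67 of the chromosome surface, had MC values of 565, 599.7 and 583 CPM, 1/7MC values of 295, 383 and 269, 1/7MC+Pyr values of 379, 339 and 373 and 1/7MC+Pyr+FGF values of 272, 491 and 344. Every library outside MC was below every MC library. The fall was -0.88 ± 0.18 (adjusted p = 0.00187), and -0.83 (adjusted p = 0.0317) against MC replicate 1.

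Of CDK1, the 3 cyclins and CDC20, 2 of 5 genes fell. CDC20, which activates the anaphase-promoting complex, had MC values of 215, 204 and 209.8 CPM, 1/7MC values of 178, 157 and 181, 1/7MC+Pyr values of 158, 166 and 163 and 1/7MC+Pyr+FGF values of 222, 185 and 198. Cyclin A2, CCNA2, had MC values of 129.8, 133 and 142 CPM, 1/7MC values of 112, 96.5 and 118, 1/7MC+Pyr values of 91.98, 119 and 114 and 1/7MC+Pyr+FGF values of 159, 132 and 138. In both, 1/7MC lay below MC without overlap. CDC20 changed by -0.29 (adjusted p = 0.0186) and CCNA2 by -0.31 (adjusted p = 0.0441), against -0.32 (adjusted p = 0.118) and -0.25 (adjusted p = 0.323) with MC replicate 1, where neither passed. Cyclin B1, CCNB1, had MC values of 190.4, 203 and 208 CPM, 1/7MC values of 178, 141 and 177, 1/7MC+Pyr values of 146, 192 and 169 and 1/7MC+Pyr+FGF values of 230.3, 198 and 206. Cyclin B2, CCNB2, had MC values of 68.2, 66.8 and 71.7 CPM, 1/7MC values of 58.7, 50.04 and 58.1, 1/7MC+Pyr values of 43.5, 55.6 and 48.7 and 1/7MC+Pyr+FGF values of 79.8, 60.8 and 65.4. Their 1/7MC libraries were again below all MC libraries, but -0.28 (adjusted p = 0.0759) and -0.31 (adjusted p = 0.0536) did not pass. CDK1 had MC values of 168, 87.1 and 82.1 CPM, 1/7MC values of 119.7, 115 and 130.4, 1/7MC+Pyr values of 99.4, 143 and 130.1 and 1/7MC+Pyr+FGF values of 186, 151 and 160.4. Its change was 0.11 (adjusted p = 0.722) with all MC libraries and -0.46 (adjusted p = 0.0774) with MC replicate 1, so the sign depends on which MC libraries are used and neither passed.

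Of the 3 mitotic kinases, 1 fell. Polo-like kinase 1, PLK1, had MC values of 181, 183 and 185 CPM, 1/7MC values of 156, 137 and 152, 1/7MC+Pyr values of 159, 153 and 150.3 and 1/7MC+Pyr+FGF values of 177, 185 and 173. All 1/7MC libraries were below MC. The change was -0.30 (adjusted p = 0.00581), against -0.28 (adjusted p = 0.139) with MC replicate 1, which did not pass. Aurora A, AURKA, which matures spindle poles, had MC values of 92.6, 97.8 and 104 CPM, 1/7MC values of 99.1, 85.6 and 101, 1/7MC+Pyr values of 95.7, 109 and 109.7 and 1/7MC+Pyr+FGF values of 143, 123 and 122. Aurora B, AURKB, which corrects attachments at centromeres, had MC values of 89.8, 92.8 and 98.98 CPM, 1/7MC values of 103, 87.3 and 96.05, 1/7MC+Pyr values of 76.3, 77.9 and 72.2 and 1/7MC+Pyr+FGF values of 92.3, 85.8 and 93.2. Both overlapped between 1/7MC and MC and did not pass (-0.05 (adjusted p = 0.738) and 0.02 (adjusted p = 0.844)). Of the 4 spindle motors and assembly genes, KIF23, a motor of the central spindle, fell. KIF23 had MC values of 99.2, 107 and 111 CPM, 1/7MC values of 82.01, 82.98 and 86.9, 1/7MC+Pyr values of 78.2, 96.03 and 90.8 and 1/7MC+Pyr+FGF values of 102, 101 and 101. It changed by -0.33 (adjusted p = 0.00851) and by -0.23 (adjusted p = 0.249) against MC replicate 1. KIF20A, a second central spindle motor, changed by -0.20 (adjusted p = 0.0545), the spindle assembly factor TPX2 by -0.10 (adjusted p = 0.344) and the pole-separating motor KIF11 by 0.16 (adjusted p = 0.23), none of which passed.

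Of the 40 genes, 9 overlap another protein-coding gene, judged by the whole span of each gene. With no strand-marking step stated, reads from a stretch that both genes of a pair share cannot be told apart. How far their exons overlap was not measured. In 1/7MC against MC, ENOSF1, over TYMS, stood at -0.41 (adjusted p = 0.0911), EIF4A2, over RFC4, at -0.35 (adjusted p = 0.018), and PAQR5, over KIF23, at -1.48 (adjusted p = 0.00175). TMEM258, over FEN1, stood at -0.26 (adjusted p = 0.353), EXOSC9, over CCNA2, at -0.14 (adjusted p = 0.494), and CDC23, over KIF20A, at -0.10 (adjusted p = 0.537). With all MC libraries these 6 had the sign of their partner among the 40, and EIF4A2 and PAQR5 passed. INTS8, over CCNE2, at -0.83 (adjusted p = 0.00174), and APRT, over CDT1, at 0.35 (adjusted p = 0.0225), passed with the opposite sign. ERN2, over PLK1, did not reach the minimum for a test with all libraries. With MC replicate 1 alone, EXOSC9 stood at 0.007 and CDC23 at 0.04, and neither had the sign of its partner. ENOSF1 (-0.54), EIF4A2 (-0.23), PAQR5 (-1.53) and TMEM258 (-0.17) kept that sign. INTS8 (-0.41) and APRT (0.46) stayed opposite, and ERN2 stood at -2.30.

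Against MC replicate 1 alone, 6 replication genes (MCM3, GINS2, CCNE1, ORC1, POLA1 and FEN1) and 3 mitosis genes (BUB1, BUB1B and MKI67) fell in 1/7MC, and none rose, with 1 replication and 0 mitosis genes above 0 at an unadjusted p under 0.05. Among all genes, 9.96% fell and 14.0% rose in that fit. Medians were -0.37 and -0.27, near those with all MC libraries, and 38 of the 40 genes kept their sign; the exceptions were CDK1 and AURKA. MC replicate 1 was the lowest MC library for 30 of the 40 genes. With all MC libraries, the loss of a single library ended some calls. RRM1, CCNA2 and NDC80 were lost without 1/7MC replicate 1, without 1/7MC replicate 2, without MC replicate 2 or without MC replicate 3, with adjusted p up to 0.094, 0.141 and 0.0985. RRM2 and CDC20 were lost without 1/7MC replicate 2 or MC replicate 3 (up to 0.0652 and 0.0611), and NDC80 and CCNE2 without 1/7MC replicate 3 (0.0501 and 0.0613).

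**Figure D3:**
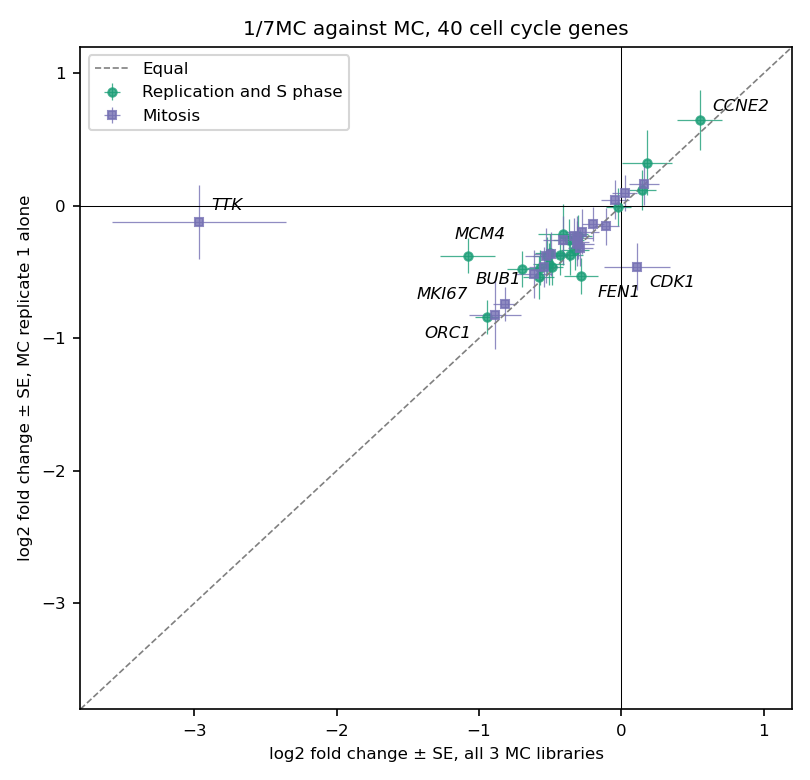
log2 fold change ± SE of 1/7MC against MC for the 40 genes, with all 3 MC libraries (horizontal) and with MC replicate 1 alone (vertical), circles for replication and squares for mitosis genes, and a dashed line where both are equal. Most genes lie near the line, while TTK (-2.97 against -0.12), MCM4, FEN1 and CDK1 lie off it.

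Adding pyruvate changed few of these genes by the test. In 1/7MC+Pyr against 1/7MC, 2 replication genes rose and 1 fell, and 1 mitosis gene rose and 1 fell, where 8.08% of all genes rose and 10.1% fell. The counts are 10% and 5% of the replication genes and 5% each way of the mitosis genes, near those shares. ORC1 rose by 0.48 ± 0.08 (adjusted p = 0.00172) and MCM3 by 0.27 ± 0.08 (adjusted p = 0.0373). CCNE2 fell by 0.62 ± 0.16 (adjusted p = 0.0171), in the opposite direction to its rise in 1/7MC; both comparisons share the 1/7MC libraries. BUB1 rose by 0.27 ± 0.08 (adjusted p = 0.0383) and AURKB fell by 0.34 ± 0.08 (adjusted p = 0.0159). None of these 5 genes overlapped between the groups. Of all 13920 genes tested, 2359 lay higher and 2855 lower in 1/7MC+Pyr without overlap. The ORC1 call alone held without each library in turn. The MCM3 call was lost without any 1 of the 6 libraries (adjusted p up to 0.125), and the BUB1 call without any except 1/7MC+Pyr replicate 1 (up to 0.131). The AURKB call was lost without 1/7MC replicate 1 or 3 or 1/7MC+Pyr replicate 3 (up to 0.0782), and the CCNE2 call without 1/7MC replicate 3 or 1/7MC+Pyr replicate 3 (up to 0.0761).

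The other 17 replication genes ranged from -0.13 to 0.32 in that comparison, and the other 18 mitosis genes from -0.31 to 0.20. CCNE1 was highest among those that did not pass (0.32 (adjusted p = 0.0552)), with no overlap between the groups, and KIF11 was lowest (-0.31 (adjusted p = 0.0613)). KIF11 had MC values of 111, 114 and 107 CPM, 1/7MC values of 120.4, 120.2 and 130.3, 1/7MC+Pyr values of 84.3, 117 and 98.7 and 1/7MC+Pyr+FGF values of 129.5, 123 and 124, so 1/7MC+Pyr lay below every 1/7MC library. The medians were 0.12 for replication and 0.04 for mitosis genes, and the mitosis median was -0.07 without 1/7MC+Pyr replicate 2. DESeq2 called 4 replication genes up and 1 down, and 1 mitosis gene up and 2 down. By that tool 22.2% of all genes changed in either direction, 1447 of 13920 up and 1638 down.

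With pyruvate and FGF together, 7 replication and 10 mitosis genes rose against 1/7MC and none fell. Over all genes, 11.9% rose and 15.7% fell, and the median fold change was 0.01, against 0.28 for the replication and 0.31 for the mitosis genes. No member fell at an unadjusted p under 0.05 in edgeR, nor by DESeq2. The replication genes that rose were CCNE1, ORC1, CDC6, MCM6, POLA1, MCM3 and MCM5, a cyclin, 2 licensing genes, 3 helicase subunits and a polymerase. CCNE1 rose by 0.51 ± 0.10 (adjusted p = 0.00354), ORC1 by 0.50 ± 0.08 (adjusted p = 0.000886) and CDC6 by 0.39 ± 0.10 (adjusted p = 0.0107). In all 3 genes the 1/7MC+Pyr+FGF libraries lay above 1/7MC, as in 2997 of all 13920 genes tested. CCNE1 and CDC6 overlapped MC, and ORC1 lay below it. The smallest of the 7 rises was that of MCM5, 0.28 ± 0.09 (adjusted p = 0.037). The mitosis genes that rose were BUB1, BUB1B, AURKA, CCNA2, TPX2, CENPE, CCNB1, KIF23, PLK1 and KIF20A. BUB1 rose by 0.45 ± 0.08 (adjusted p = 0.00165), BUB1B by 0.45 ± 0.10 (adjusted p = 0.00649) and AURKA by 0.44 ± 0.10 (adjusted p = 0.00606). TPX2, which activates Aurora A on spindle microtubules, had MC values of 315, 291 and 298 CPM, 1/7MC values of 286, 278 and 278, 1/7MC+Pyr values of 262, 316 and 301 and 1/7MC+Pyr+FGF values of 385, 363 and 349.7. Its 1/7MC+Pyr+FGF libraries were the highest of the 12, and it rose by 0.38 ± 0.09 (adjusted p = 0.00577). AURKA likewise had its 3 highest values there. KIF20A had MC values of 183, 194 and 192 CPM, 1/7MC values of 162, 162 and 170.00, 1/7MC+Pyr values of 142, 162 and 158 and 1/7MC+Pyr+FGF values of 208, 192 and 192, with 1/7MC+Pyr+FGF above both 1/7MC groups (0.26 (adjusted p = 0.0282)).

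Of the 17 rises, 10 did not survive the loss of every single library. CCNB1 and KIF23 were lost without any 1 of the 6 (adjusted p up to 0.164 and 0.109), CENPE without any except 1/7MC replicate 2 (up to 0.147). KIF20A was lost without any 1 of the 1/7MC libraries or 1/7MC+Pyr+FGF replicate 1 (up to 0.0874), and MCM6 without 1/7MC replicate 1 or 2 or 1/7MC+Pyr+FGF replicate 1 or 3 (up to 0.0946). MCM5 was lost without 1/7MC replicate 2 or 1/7MC+Pyr+FGF replicate 1 or 3 (up to 0.114), CCNA2 without 1/7MC replicate 1 or 2 or 1/7MC+Pyr+FGF replicate 1 (up to 0.101). PLK1 was lost without 1/7MC replicate 2 or 1/7MC+Pyr+FGF replicate 2 (up to 0.0765), MCM3 without 1/7MC replicate 2 (0.0549) and POLA1 without 1/7MC replicate 1 (0.0583). Without 1/7MC replicate 2, the lowest of its group in 31 of the 40 genes, 4 replication and 5 mitosis genes rose. The mitosis count was also 5 without 1/7MC replicate 1 or 1/7MC+Pyr+FGF replicate 1, and 6 without 1/7MC replicate 3.

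Between the 2 pyruvate groups, the step to FGF gave 1 call among the 40: KIF20A rose by 0.36 ± 0.08 (adjusted p = 0.0334), while CDC23, which overlaps it, stood at 0.28 (adjusted p = 0.238). Over all genes 0.639% rose and 2.12% fell. The KIF20A call was lost without any 1 library except 1/7MC+Pyr replicate 2 (adjusted p up to 0.123); without that library 3 mitosis genes rose. By edgeR no replication gene passed in either direction, with 2 above 0 and 0 below 0 at an unadjusted p under 0.05, and DESeq2 called 1 up and 0 down. Of the mitosis genes, 13 were above 0 and 0 below at an unadjusted p under 0.05, a limit with no all-gene share counted. DESeq2 called 5 up and 0 down. By that tool 6.48% of all genes changed, 283 of 13920 up and 619 down. All 20 mitosis genes had fold changes above 0, from 0.02 to 0.51 with a median of 0.29, and in 15 of them all 1/7MC+Pyr+FGF libraries lay above all 1/7MC+Pyr libraries, as in 9.69% of all genes tested. The replication genes ran from -0.06 to 0.44 with a median of 0.12, and 4 of the 20 were above without overlap. All genes tested had a median of 0.01. CCNB2 was the closest to passing, at 0.48 (adjusted p = 0.058), followed by TPX2 at 0.32 (adjusted p = 0.0657) and CDC20 at 0.32 (adjusted p = 0.0794). Replicate 1 of 1/7MC+Pyr was the lowest library of its group for 31 of the 40 genes, and replicate 1 of 1/7MC+Pyr+FGF was the highest of its own for 27.

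Against MC, the 2 pyruvate groups were read from the same MC libraries, so their values stand side by side. In 1/7MC+Pyr, 9 replication and 14 mitosis genes fell and none rose, where 13.2% of all genes fell and 15.2% rose. At an unadjusted p under 0.05 edgeR had 0 of the 40 above 0, and DESeq2 called 0 up. The replication genes that fell were MCM2, MCM4, MCM6, RRM1, TYMS, GINS2, CCNE1, ORC1 and POLA1. ORC1 fell by 0.46 ± 0.08 (adjusted p = 0.00138), RRM1 by 0.44 (adjusted p = 0.00749) and MCM4 by 0.89 (adjusted p = 0.00448). The mitosis genes that fell were BUB1, BUB1B, CCNB2, CDC20, PLK1, AURKB, TOP2A, MKI67, KIF20A, KIF23, CENPE, CENPF, NDC80 and TTK. BUB1 fell by 0.55 (adjusted p = 0.000383), CENPF by 0.73 (adjusted p = 0.00286), MKI67 by 0.68 (adjusted p = 0.0151) and TTK by 2.85 (adjusted p = 0.00427) on the log2 scale. Medians were -0.30 for replication and -0.34 for mitosis genes. Some of the genes that fell overlap another protein-coding gene that also passed with the same sign. CDC23, over KIF20A, stood at -0.46 (adjusted p = 0.0127), and PAQR5, over KIF23, at -0.95 (adjusted p = 0.029). ENOSF1, over TYMS, was at -0.54 (adjusted p = 0.0467), while ERN2, over PLK1, had no test. The part of shared reads in these calls was not tested.

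Of those 23 calls, 1 was kept against MC replicate 1 alone, while several fold changes moved little. Against MC replicate 1 alone BUB1 fell by 0.47 (adjusted p = 0.0356), and no other of the 40 passed, with 3 replication and 6 mitosis genes below 0 and none above at an unadjusted p under 0.05; in that fit 3.15% of all genes fell and 6.56% rose. The medians there were -0.18 and -0.25. CCNB2 stood at -0.46 (adjusted p = 0.125) there against -0.48 (adjusted p = 0.0106) with all MC libraries, MKI67 at -0.62 (adjusted p = 0.175) and CENPF at -0.57 (adjusted p = 0.107). CDC20 was at -0.40 (adjusted p = 0.094) and ORC1 at -0.35 (adjusted p = 0.116), while TTK went to 0.00 (adjusted p = 0.999). With 1 library left out of the fit with all libraries, 4 replication and 6 mitosis genes fell without MC replicate 2 or without MC replicate 3. Without 1/7MC+Pyr replicate 3, 9 mitosis genes fell, and without 1/7MC+Pyr replicate 1, 5 replication genes. Without MC replicate 1 none of the 23 calls was lost. BUB1, ORC1, MCM2, MCM4, RRM1, CCNB2, CDC20, MKI67, CENPF and TTK kept their call without each library in turn.

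In 1/7MC+Pyr+FGF against MC, 5 replication genes (MCM2, MCM4, GINS2, ORC1 and POLA1) and 4 mitosis genes (BUB1, MKI67, CENPF and TTK) fell, and 2 mitosis genes (AURKA and TPX2) rose. Over all genes, 15.4% fell and 17.1% rose. The medians were -0.16 and -0.05. ORC1 fell by 0.44 ± 0.08 (adjusted p = 0.00177), GINS2 by 0.41 (adjusted p = 0.0132) and MCM4 by 0.77 (adjusted p = 0.00949). MKI67 fell by 0.66 (adjusted p = 0.016), CENPF by 0.61 (adjusted p = 0.0073) and TTK changed by -2.34 (adjusted p = 0.00991). AURKA rose by 0.40 ± 0.10 (adjusted p = 0.00949) and TPX2 by 0.28 ± 0.09 (adjusted p = 0.0248). No replication gene rose by edgeR or DESeq2, and 2 were above 0 at an unadjusted p under 0.05. Against MC replicate 1 alone none of the 40 passed in either direction, while 6.13% of all genes fell and 5.86% rose, and 3 replication and 3 mitosis genes were below 0 and 1 of each above at an unadjusted p under 0.05. There AURKA stood at 0.46 (adjusted p = 0.0647), ORC1 at -0.36 (adjusted p = 0.088) and TTK, with the opposite sign, at 0.48 (adjusted p = 0.317). Without MC replicate 2, MCM2, POLA1 and TPX2 lost their call (adjusted p = 0.0548, 0.148 and 0.103), and without MC replicate 3, POLA1 and TPX2 did (0.149 and 0.0842). Without 1/7MC+Pyr+FGF replicate 1, POLA1, MKI67 and TPX2 lost theirs (0.106, 0.0535 and 0.0736), and without replicate 3 of that group, POLA1 and MKI67 (0.107 and 0.061).

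Replication and mitosis genes can be contrasted library by library, since a common scale factor drops out of their difference. Relative to MC replicate 1, the median over the 20 replication genes was -0.29, -0.49 and -0.31 for 1/7MC, -0.37, -0.16 and -0.18 for 1/7MC+Pyr, then -0.02, -0.12 and -0.09 for 1/7MC+Pyr+FGF. The median over the 20 mitosis genes was -0.22, -0.37 and -0.24, then -0.47, -0.17 and -0.25, then 0.11, -0.02 and -0.06. The replication median lay below the mitosis median in all 3 libraries of 1/7MC and all 3 of 1/7MC+Pyr+FGF, and above it in all 3 of 1/7MC+Pyr. The gaps were small, between 0.01 and 0.13 in size. That of 1/7MC+Pyr replicate 2, 0.0096, was smaller than those of MC replicates 2 and 3, 0.0134 and 0.0315. Its sign may thus depend on the MC library taken as reference. As the members were chosen with earlier results known, no p is given for this contrast.

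Ratios between members within a library also need no scaling to depth; the pairs below were chosen after their values were seen and carry no test. Counts per kilobase of CCNE1 over CCNE2 were 5.38 ± 0.39 (SD, n = 3) in MC, 2.28 ± 0.18 in 1/7MC, 4.48 ± 0.76 in 1/7MC+Pyr and 3.69 ± 0.49 in 1/7MC+Pyr+FGF. All 1/7MC libraries were below the 9 others. MCM7 over MCM3, 2 subunits of one ring, stood at 0.969, 0.903 and 0.920 for MC, 1.45, 1.45 and 1.44 for 1/7MC, 1.13, 1.17 and 1.11 for 1/7MC+Pyr, then 1.26, 1.13 and 1.18 for 1/7MC+Pyr+FGF. The 3 1/7MC libraries were the highest and the MC libraries the lowest, with both pyruvate groups between. MCM7 over MCM5 and MCM7 over MCM6 had the same order, but MCM7 over MCM2 did not. There 1/7MC+Pyr+FGF replicate 1, at 1.375, lay above the 1/7MC libraries, at 1.198, 1.231 and 1.211. AURKA over AURKB was 1.16 ± 0.01 in MC, 1.11 ± 0.05 in 1/7MC, 1.54 ± 0.15 in 1/7MC+Pyr and 1.58 ± 0.13 in 1/7MC+Pyr+FGF, so here the pyruvate groups stood apart from the other 2. RRM2 over RRM1 followed the same division, with 1.41 ± 0.03 and 1.35 ± 0.05 against 1.55 ± 0.02 and 1.61 ± 0.12.

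**Figure D4:**
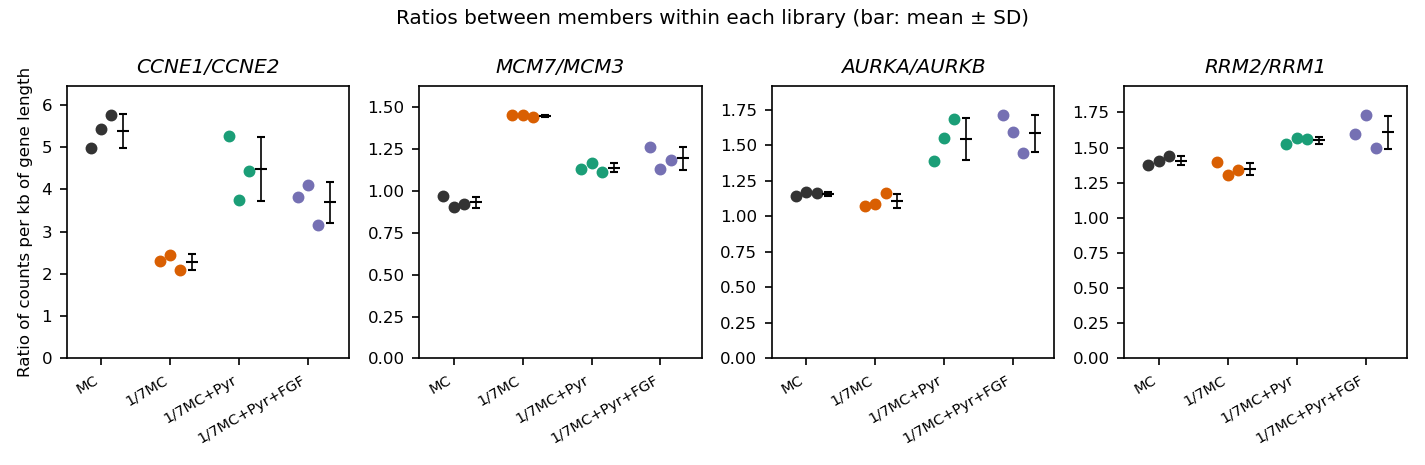
Ratio of counts per kilobase between pairs of members in each of the 12 libraries (points), with the group mean ± SD, on axes from 0. CCNE1 over CCNE2 is lowest and MCM7 over MCM3 highest in 1/7MC, and AURKA over AURKB and RRM2 over RRM1 are higher in both pyruvate groups than in MC and 1/7MC.

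Gene length enters these comparisons because libraries differed in how counts ran with length. The 40 genes span 1193 bases (GINS2) to 11241 bases (MKI67), with a median of 2655. Pearson's r between log2 length and a library's deviation of log2 CPM from the mean, across the genes tested, stood at 0.09, -0.15 and -0.18 for MC, -0.05, 0.20 and -0.03 for 1/7MC, 0.20, 0.08 and 0.23 for 1/7MC+Pyr, then -0.31, 0.19 and -0.05 for 1/7MC+Pyr+FGF. Genes are not independent replicates, so no p goes with these. The 3 longest members, MKI67, CENPF and CENPE, went with r in some groups and against it in others. In 1/7MC and in 1/7MC+Pyr+FGF all 3 were highest in replicate 2, which has the highest r of its group. In MC all 3 were lowest in replicate 1, whose r is the highest, and in 1/7MC+Pyr replicate 2, with the lowest r, had the highest CENPE and CENPF and the lowest MKI67. MKI67 reached 383 CPM in 1/7MC replicate 2 against 295 and 269 in the others, and 491 in 1/7MC+Pyr+FGF replicate 2 against 272 and 344. Between groups, r of the log2 fold change with log2 length was 0.09 for 1/7MC, 0.15 for 1/7MC+Pyr and 0.05 for 1/7MC+Pyr+FGF against MC. With MC replicate 1 alone these were -0.04, -0.0007 and -0.09. It was 0.07 for 1/7MC+Pyr against 1/7MC, -0.22 for the step to FGF and -0.07 for 1/7MC+Pyr+FGF against 1/7MC.

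With offsets fitted to each library's length trend, the contrast of 1/7MC with MC gave 15 replication and 13 mitosis genes down and CCNE2 up. In that fit 48.9% of all genes changed in either direction, 3570 of 13920 up and 3240 down. MKI67 then stood at -1.05 (adjusted p = 1.62e-05) and POLA1 at -0.67 (adjusted p = 0.000225). The offsets left a trend in the comparisons with MC. There r of log2 fold change with log2 length was 0.05 for 1/7MC, against 0.09 without offsets. For 1/7MC+Pyr it was 0.05 against 0.15, and for 1/7MC+Pyr+FGF 0.06 against 0.05. In 1/7MC+Pyr against 1/7MC, 5 replication genes rose in place of 2, as CDT1, GINS2 and CCNE1 joined MCM3 and ORC1. No mitosis gene rose there, and KIF11 fell with AURKB. In this comparison 21.2% of all genes changed in either direction, 1332 of 13920 up and 1621 down. BUB1 stood at 0.23 (adjusted p = 0.0731). In the step to FGF, CCNB2 and TPX2 joined KIF20A, with 0.42 (adjusted p = 0.0454), 0.44 (adjusted p = 0.0399) and 0.36 (adjusted p = 0.0187). There 3.70% of all genes changed, 142 of 13920 up and 373 down. Pyruvate and FGF together against 1/7MC gave 8 replication and 10 mitosis genes up, TYMS being the addition. Of all genes 31.8% changed, 2001 of 13920 up and 2430 down. With MC replicate 1 alone and the same offsets, 11 replication and 4 mitosis genes fell in 1/7MC and CCNE2 rose at 0.64 (adjusted p = 0.0425), among 28.8% of all genes changed. MCM4 then fell at -0.40 (adjusted p = 0.0111) and TYMS at -0.49 (adjusted p = 0.0067).

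**Figure D5:**
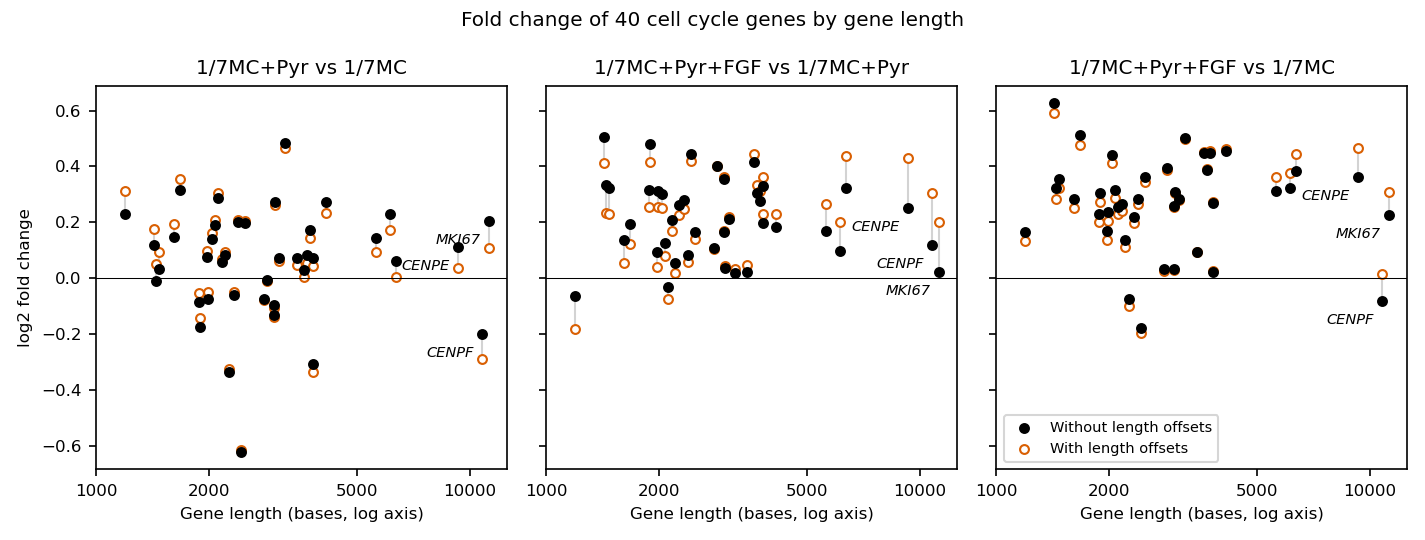
log2 fold change of the 40 genes against gene length in bases (log axis) for the 3 comparisons without MC, from the fit without length offsets (filled points) and with them (open points), joined by lines. The offsets move the longest genes most: in the step to FGF, CENPE goes from 0.25 to 0.43 and MKI67 from 0.02 to 0.20.

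Other genes of the same machinery went along in part. Of 64 further replication genes, all tested, 29 fell and 2 rose in 1/7MC against MC (median -0.25), and of 75 tested of 78 further mitosis genes 34 fell and 1 rose (median -0.31). In both lists 45.3% fell, against the 21.3% of all genes given above. With MC replicate 1 alone, the counts were 10 down and 0 up, with 1 above 0 at an unadjusted p under 0.05, and 9 down and 1 up. The 15.6% and 12% that fell then stand beside 9.96% of all genes. The mitosis genes with the largest falls were DEPDC1, ESPL1, which encodes separase, and INCENP, the scaffold of Aurora B, at -0.74 ± 0.18, -0.72 ± 0.10 and -0.67 ± 0.11. The last 2 held against MC replicate 1, at -0.70 (adjusted p = 0.00582) and -0.55 (adjusted p = 0.0256). The rising mitosis gene, the phosphatase CDKN3, was at 0.81 ± 0.18 (adjusted p = 0.00252) and 0.96 (adjusted p = 0.0252). Among replication genes TICRR, which fires origins, and the repressor E2F8 fell, at -0.84 ± 0.16 and -0.77 ± 0.10, and both held at -0.94 (adjusted p = 0.00649) and -0.72 (adjusted p = 0.00322). RAD51AP1 (-4.11 ± 1.17 (adjusted p = 0.0124)) had 0.59 CPM in MC replicate 1 against 34.4 and 31.9 in the other MC libraries, and stood at 1.13 (adjusted p = 0.573) against replicate 1.

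Of the further replication genes, 4 rose and 2 fell in 1/7MC+Pyr against 1/7MC, and of the further mitosis genes 3 rose and 4 fell. Those shares, 6.25% up and 3.12% down and then 4% up and 5.33% down, lie below the 8.08% and 10.1% of all genes. CDKN3 fell (-1.03 ± 0.18 (adjusted p = 0.00177)), as did UHRF1, which maintains DNA methylation behind the fork (-0.50 ± 0.08 (adjusted p = 0.000815)), and MYBL2, an activator of mitosis genes, rose (0.37 ± 0.08 (adjusted p = 0.00581)). In 1/7MC+Pyr+FGF against 1/7MC, 15 further replication genes rose and 1 fell (median 0.23), and 25 further mitosis genes rose and 1 fell (median 0.26). The rises come to 23.4% and 33.3%, where 11.9% of all genes rose. MCM10 (0.52 ± 0.09), E2F8 (0.52 ± 0.10) and the condensin subunit NCAPG (0.54 ± 0.11) were among the risers. In the step to FGF, 5 further mitosis genes and 0 further replication genes rose and none fell, with medians of 0.30 and 0.21, which is 6.67% of the mitosis list beside 0.639% of all genes. PRC1, which bundles microtubules of the central spindle, rose by 0.47 ± 0.08 (adjusted p = 0.0106) and CEP55, which acts in abscission, by 0.47 ± 0.11 (adjusted p = 0.0446). At an unadjusted p under 0.05, edgeR had 18 further replication and 38 further mitosis genes above 0 and none below. DESeq2 called 2 and 19 up and none down, where it called 283 of all 13920 genes up. Without 1/7MC+Pyr replicate 1 or 3, 1 further mitosis gene rose in that step. Against MC, 1/7MC+Pyr had 19 further replication genes down and 1 up, and 34 further mitosis genes down and 1 up, so that 29.7% and 45.3% fell beside 13.2% of all genes. For 1/7MC+Pyr+FGF it was 11 down and 5 up, and 10 down and 4 up, and the 17.2% and 13.3% that fell are near the 15.4% of all genes. With MC replicate 1 alone, those became 2 and 6 down in 1/7MC+Pyr with none up, and 1 and 1 down in 1/7MC+Pyr+FGF with 0 and 1 up. The first are 3.12% and 8% of the lists beside 3.15% of all genes, and the second 1.56% and 1.33% beside 6.13%.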

How the data were processed

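Poly-A RNA of 12 libraries was measured by sequencing; per the labels' protocols, poly-T selection, fragmentation and random priming preceded a NEBNext Ultra kit, with no step that marks strand. The tools, per the submitters' processing notes, were HISAT2 2.1.0, fastp 0.19.7 and featureCounts, with Subread 2.0, and the build was bosTau9; their order, settings and annotation are not given in the sources used here. The authors deposited whole-number counts per gene, with no normalisation. A second deposited table holds a signal that equals the count over gene length times 4.94 in every library, so it carries no correction for depth and served only as an alternative, rescaled to equal sums, as log2 with pseudocounts of 0.1 and 1 in limma 3.58.1.

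Of 19285 entries, 400 whose identifier is not unique were dropped (1.07% to 1.40% of a library's counts), and 18803 of the 18885 kept had a symbol from the RefSeq gene table of ARS-UCD2.0, another build, used for names and overlapping neighbours only. Of the 40 genes, 18 overlap another gene there and 9 a protein-coding one. Counts were filtered with filterByExpr, which left 13920 genes (14361 with MC replicate 1 alone), scaled with TMM factors (0.968 to 1.04) and tested with edgeR 4.0.16 (glmQLFit and glmQLFTest) with all 12 libraries and 1 coefficient per group. The SE is the fold change over the square root of F. Length offsets were a lowess curve, with span 0.3, of each library's log2 CPM deviation on log2 gene length. Alternatives were DESeq2 1.42.0, RLE size factors, other filters, only the groups compared, a replicate block, MC replicate 1 alone and leaving out each library. Versions were Python 3.11.15, matplotlib 3.10.9 and R 4.3.3. Scripts were tested on simulated data.

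Members and lists were chosen with earlier results of these data known. Named with values in each library were members that passed and were among the 3 largest rises or falls of their set, or that lost their call against MC replicate 1; a few others were added after their values were seen. From the lists of further genes, at most the 3 largest rises and 3 largest falls that passed in a comparison were eligible, and some of them are named. Sequences of promoters and proteins were not used here, and promoter motifs were not analysed.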

Additional observations from a re-analysis of the deposited data

How the results depend on the processing

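The counts of genes that rose or fell are compared here with those of the report, which stand in parentheses. The cause of each shift was not tested except where it follows from fewer libraries or genes. Calls over all genes moved between settings too, so a changed count need not set the members apart from other genes. In the step to FGF, 89 of 13920 genes rose in the report, 283 with DESeq2 and 142 with length offsets. With only the groups compared, 62 of 13486 did. Shares of all genes are not given for every setting. Against MC replicate 1 alone, 0 replication genes rose (1), 6 replication genes fell (14), 3 mitosis genes fell (12), 0 further replication genes rose (2), 10 further replication genes fell (29) and 9 further mitosis genes fell (34) in 1/7MC against MC. 0 replication genes fell (9), 1 mitosis gene fell (14), 0 further replication genes rose (1), 2 further replication genes fell (19), 0 further mitosis genes rose (1) and 6 further mitosis genes fell (34) in 1/7MC+Pyr against MC. 0 replication genes fell (5), 0 mitosis genes rose (2), 0 mitosis genes fell (4), 0 further replication genes rose (5), 1 further replication gene fell (11), 1 further mitosis gene rose (4) and 1 further mitosis gene fell (10) in 1/7MC+Pyr+FGF against MC. Against it with length offsets, 1 replication gene fell (9), 5 mitosis genes fell (14), 0 further replication genes rose (1), 5 further replication genes fell (19), 0 further mitosis genes rose (1) and 13 further mitosis genes fell (34) in 1/7MC+Pyr against MC. 2 replication genes fell (5), 1 mitosis gene rose (2), 0 mitosis genes fell (4), 1 further replication gene rose (5), 4 further replication genes fell (11), 2 further mitosis genes rose (4) and 1 further mitosis gene fell (10) in 1/7MC+Pyr+FGF against MC. 4 mitosis genes fell (12), 1 further replication gene rose (2), 13 further replication genes fell (29), 2 further mitosis genes rose (1) and 13 further mitosis genes fell (34) in 1/7MC against MC. With length offsets and all libraries, 5 replication genes rose (2), 0 mitosis genes rose (1), 2 mitosis genes fell (1) and 8 further mitosis genes fell (4) in 1/7MC+Pyr against 1/7MC. 1 replication gene rose (0) and 1 mitosis gene rose (2) in 1/7MC+Pyr+FGF against MC. 3 mitosis genes rose (1) and 9 further mitosis genes rose (5) in 1/7MC+Pyr+FGF against 1/7MC+Pyr. 4 further replication genes rose (2) and 2 further mitosis genes rose (1) in 1/7MC against MC. 2 further replication genes fell (1) in 1/7MC+Pyr+FGF against 1/7MC. 2 further replication genes rose (1) in 1/7MC+Pyr against MC. With DESeq2 in place of edgeR, 4 replication genes rose (2), 2 mitosis genes fell (1), 7 further replication genes rose (4) and 7 further mitosis genes fell (4) in 1/7MC+Pyr against 1/7MC. 1 replication gene rose (0), 5 mitosis genes rose (1), 2 further replication genes rose (0) and 19 further mitosis genes rose (5) in 1/7MC+Pyr+FGF against 1/7MC+Pyr. With only the groups compared in the fit, 1 mitosis gene rose (0), 4 further replication genes rose (2) and 2 further mitosis genes rose (1) in 1/7MC against MC. 0 mitosis genes rose (1) in 1/7MC+Pyr against 1/7MC. 0 mitosis genes rose (1) and 0 further mitosis genes rose (5) in 1/7MC+Pyr+FGF against 1/7MC+Pyr. 1 mitosis gene rose (2) and 2 mitosis genes fell (4) in 1/7MC+Pyr+FGF against MC. 0 further replication genes fell (1) in 1/7MC+Pyr+FGF against 1/7MC. 0 further replication genes rose (1) and 10 further replication genes fell (19) in 1/7MC+Pyr against MC. With no filter on low counts, 1 replication gene rose (2), 0 mitosis genes rose (1) and 1 further mitosis gene rose (3) in 1/7MC+Pyr against 1/7MC. 3 further mitosis genes rose (5) in 1/7MC+Pyr+FGF against 1/7MC+Pyr. With a minimum count of 50, 8 replication genes fell (5) and 1 mitosis gene rose (2) in 1/7MC+Pyr+FGF against MC. 0 mitosis genes rose (1) in 1/7MC+Pyr against 1/7MC. 0 further mitosis genes rose (1) in 1/7MC+Pyr against MC. On the rescaled signal, tested with limma at a pseudocount of 1 or 0.1, 2 replication genes rose (1), 6 further replication genes rose (2), 3 further mitosis genes rose (1) and 22 further mitosis genes fell (34) in 1/7MC against MC. 4 replication genes rose (7), 5 mitosis genes rose (10), 9 further replication genes rose (15), 2 further replication genes fell (1) and 11 further mitosis genes rose (25) in 1/7MC+Pyr+FGF against 1/7MC. 0 mitosis genes rose (1) and 2 further mitosis genes rose (5) in 1/7MC+Pyr+FGF against 1/7MC+Pyr. 2 further replication genes rose (4) and 1 further mitosis gene rose (3) in 1/7MC+Pyr against 1/7MC. 4 further replication genes rose (1) and 12 further replication genes fell (19) in 1/7MC+Pyr against MC. With the pseudocount of 1 alone, 4 replication genes rose (2) in 1/7MC+Pyr against 1/7MC. That rescaling moved the split of calls over all genes: the share of calls that were rises was 52.7% in 1/7MC against MC (63.7% and 64.0%), 53.6% in 1/7MC+Pyr against MC (65.8% and 67.5%), 43.1% in 1/7MC+Pyr+FGF against 1/7MC (25.5% and 26.2%) and 23.2% in 1/7MC+Pyr+FGF against 1/7MC+Pyr (14.7% and 13.1%), with the values at pseudocounts of 1 and 0.1 in parentheses. With a minimum count of 50 this share went from 52.7%, 53.6% and 52.5% to 47.1%, 43.9% and 43.2% in 1/7MC, 1/7MC+Pyr and 1/7MC+Pyr+FGF against MC, so that most calls were falls, and against MC replicate 1 alone it was 58.4%, 67.6% and 48.9%. The fall of TTK reversed against MC replicate 1, to 0.0005 in 1/7MC+Pyr and 0.48 in 1/7MC+Pyr+FGF, and to 0.38 in the latter with length offsets, none of which passed. No other of the 40 genes with a call changed sign under the settings tried.

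Leaving out each library of a comparison in turn, 0 to 1 replication genes rose (1), 0 to 1 mitosis genes rose (0), 2 to 4 further replication genes rose (2), 19 to 29 further replication genes fell (29) and 1 to 2 further mitosis genes rose (1) in 1/7MC against MC. 1 to 3 replication genes rose (2), 0 to 1 replication genes fell (1), 0 to 1 mitosis genes rose (1), 0 to 2 mitosis genes fell (1), 0 to 12 further replication genes rose (4), 1 to 2 further replication genes fell (2), 1 to 3 further mitosis genes rose (3) and 1 to 6 further mitosis genes fell (4) in 1/7MC+Pyr against 1/7MC. 0 to 3 mitosis genes rose (1) and 1 to 8 further mitosis genes rose (5) in 1/7MC+Pyr+FGF against 1/7MC+Pyr. Over all genes in that step, 33 of 14142 rose without 1/7MC+Pyr replicate 1 and 94 of 14123 without 1/7MC+Pyr replicate 2. 4 to 8 replication genes rose (7), 5 to 8 mitosis genes rose (10), 9 to 15 further replication genes rose (15), 0 to 1 further replication genes fell (1) and 12 to 21 further mitosis genes rose (25) in 1/7MC+Pyr+FGF against 1/7MC. 4 to 12 replication genes fell (9), 0 to 1 mitosis genes rose (0), 6 to 15 mitosis genes fell (14), 0 to 3 further replication genes rose (1), 9 to 18 further replication genes fell (19), 0 to 1 further mitosis genes rose (1) and 21 to 42 further mitosis genes fell (34) in 1/7MC+Pyr against MC. 0 to 1 replication genes rose (0), 3 to 7 replication genes fell (5), 1 to 3 mitosis genes rose (2), 4 to 8 further replication genes rose (5), 6 to 10 further replication genes fell (11), 2 to 4 further mitosis genes rose (4) and 3 to 11 further mitosis genes fell (10) in 1/7MC+Pyr+FGF against MC.

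Same replicate numbers recur in the 4 groups, and the labels do not say whether they pair the libraries. Over 18 same-numbered pairs the correlation of deviations from the group means was -0.32 to 0.33, with 2 over 0.1. Of 12 libraries, 3 correlated best with their own number. Deviations from a mean of 3 libraries sum to 0 within a group, so this check cannot exclude a pairing. With the replicate number as a replicate block, 1 replication gene rose (2) and 0 mitosis genes rose (1) in 1/7MC+Pyr against 1/7MC. 0 mitosis genes rose (1) and 2 further mitosis genes rose (5) in 1/7MC+Pyr+FGF against 1/7MC+Pyr. The other counts of the report stayed within 1.5 times under the block. MC replicate 1 alone leaves the MC group with no replicate of its own, and with 3 libraries a group a change near its standard error could not be told from none. TTK, at under 11 CPM in 10 of the libraries, and CCNE2, at under 20, carry the fewest counts of the 40 genes.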
